A study of Rattus norvegicus with 4 samples.

Results

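Rat granulosa cells that carried a DNA-binding mutant of active FOXO1 and received follicle-stimulating hormone (FSH) were compared with cells that carried green fluorescent protein (GFP) and received vehicle. The comparison used 2 of the 4 arrays in the series, 1 on each side. It covered every probe set with exactly 1 gene symbol, which was 20832 of 31099 probe sets and 14218 genes. Primary cultures were prepared from estradiol-treated female Sprague-Dawley rats that were immature, at 23 to 25 days of age, and were kept without serum. All cultures were exposed to an adenovirus for 4 h and then kept for 24 h with FSH at 100 ng/ml or without it. FOXOA3-mDBD FSH cells received the virus for FOXOA3-mDBD, a form of the constitutively active FOXO1 called FOXOA3 that is mutated in its DNA-binding domain, and then FSH. GFP vehicle cells received the control virus and no FSH. The vector and the hormone both differed between these arrays, so that their parts in a difference cannot be told apart from this pair alone. The other 2 arrays, FOXOA3 FSH and GFP FSH, supply values set beside it. The sources used here do not give the amount of virus, the species of the FOXO1 insert, or whether an array held RNA of 1 culture or of several. With 1 array per group no difference had a replicate check, and no standard deviations or p-values were computed.

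Granulosa cells surround the oocyte in the ovarian follicle. FSH binds its receptor on them, raises cyclic AMP and activates protein kinase A, and in this way directs the cells towards estradiol and progesterone synthesis, for which cholesterol is the substrate. FOXO1 is a forkhead transcription factor that is abundant in granulosa cells of growing follicles, and kinases of the insulin and phosphatidylinositol 3-kinase pathway phosphorylate it and move it out of the nucleus. A form that escapes this phosphorylation stays nuclear, and a mutation of its DNA-binding domain removes binding to forkhead sites while leaving the rest of the protein in the cell.

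The values were microarray signals on a linear scale, computed by the authors with MAS5. Their 2% trimmed means lay between 500.1 and 500.2 on the 4 arrays, and 47.9% to 52.8% of probe sets per array were above a signal of 100.5, the median over all arrays, which served as the floor. The control probe sets differed between the arrays compared. Poly-A spike-in probe sets, which report RNA added to the sample, had a geometric mean signal of 539.4 on the FOXOA3-mDBD FSH array and 21.4 on the GFP vehicle array, and on the other arrays it was 394.6 (GFP FSH) and 22.6 (FOXOA3 FSH). The ratio of the 3′ to the 5′ beta-actin control, a measure of RNA and labelling quality, was 10.7 on the FOXOA3-mDBD FSH array and 5.15 on the GFP vehicle array, and the same ratio for GAPDH was 3.15 in FOXOA3-mDBD FSH and 2.32 in GFP vehicle. The part of the spike-in state and of this RNA quality measure in the differences below was not tested. FOXOA3 FSH is the hormone-treated array whose spike-in signal was near that of GFP vehicle, and its values are therefore given beside the main ones. Its beta-actin ratio of 9.79 was nearer to the mutant array, and that of GFP FSH was 12.0. Hybridisation control probe sets had geometric means of 2855 (FOXOA3-mDBD FSH), 2759 (GFP FSH), 1224 (FOXOA3 FSH) and 1647 (GFP vehicle).

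Of the 14218 genes, 9862 were measured, meaning that the higher of the 2 signals was above the floor. Lower signals were set to the floor, and a fold against a signal at the floor is written "at least". At a fold of 2 or more, 1280 genes were higher in FOXOA3-mDBD FSH than in GFP vehicle (13.0% of measured genes) and 2215 were lower (22.5%), while 6367 stayed within 2-fold (64.6%). The median log2 ratio of FOXOA3-mDBD FSH over GFP vehicle was -0.17, and its quartiles were -0.90 and 0.50. At 2-fold the lower genes were thus the larger group, 63.4% of those past the threshold. The larger the fold, the smaller their share became: it was 58.9% at 4-fold, 46.2% at 8-fold, 25% at 16-fold (57 higher and 19 lower) and 8% at 32-fold (23 higher and 2 lower). The counts of gene lists below are to be read against these shares of all measured genes, 13.0% higher and 22.5% lower, which already lean to the lower side. The split depended on scaling. It was 63.4% lower as deposited, 52.5% when the ratios were centred on their median and 48.5% after an intensity-dependent loess correction. It also depended on brightness: among the 2580 genes whose brighter signal was above 2170, 21.6% were higher and 18.8% lower, against 11.8% and 27.4% of the 3854 genes between 542.5 and 2170.

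**Figure D1:**
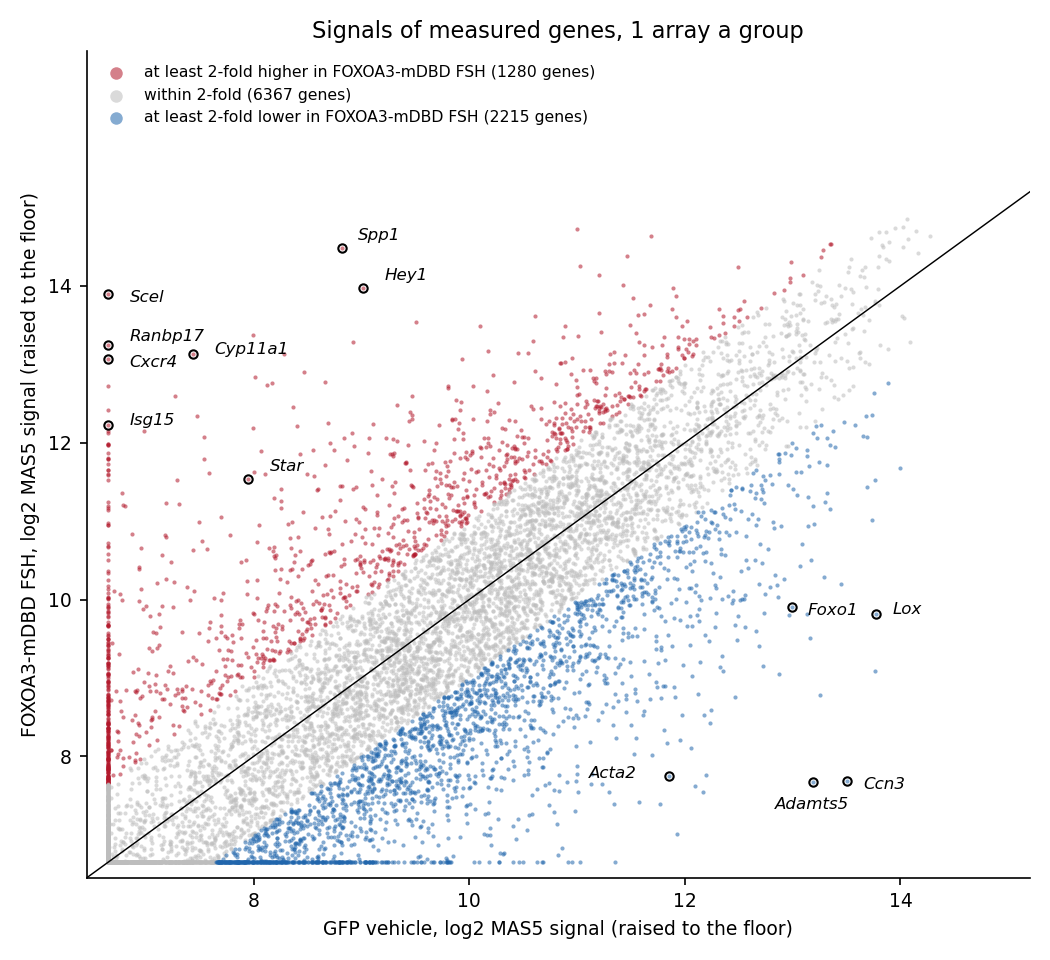
Log2 MAS5 signal of each of 9862 measured genes on the FOXOA3-mDBD FSH array (vertical) and on the GFP vehicle array (horizontal), with lower signals set to the floor. Red points are the 1280 genes at least 2-fold higher in FOXOA3-mDBD FSH, blue points the 2215 at least 2-fold lower and grey points the 6367 within 2-fold, with named genes circled. The line marks equal signals. The 4 highest ratios (Scel, Ranbp17, Cxcr4 and Epha3) lie on the left edge, where the GFP vehicle signal was at the floor.

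Of the 15 genes with the highest ratios, 11 had no signal above the floor in GFP vehicle. In 89 genes the GFP vehicle signal was at the floor while the FOXOA3-mDBD FSH signal was above 542.5, the 75th percentile of all signals, and in 53 genes the reverse was seen. Scel, which encodes sciellin, a protein of the cornified envelope of skin, had a signal of 15268 in FOXOA3-mDBD FSH, 451.3 in FOXOA3 FSH, 3.0 in GFP FSH and 2.7 in GFP vehicle, at least 152-fold higher in the mutant cells than in GFP vehicle. Loricrin, another cornified envelope protein, had 4040 in FOXOA3-mDBD FSH and 33.1 in GFP vehicle, at least 40.2-fold higher. Both were under the floor on each GFP array, and both lay above it with either FOXO1 vector. Ranbp17, a member of the nuclear transport receptor family, had 9745 in FOXOA3-mDBD FSH, 168.0 in FOXOA3 FSH, 97.3 in GFP FSH and 98.2 in GFP vehicle, at least 97.0-fold higher than vehicle. Cxcr4, the receptor for the chemokine CXCL12, had 8566 in FOXOA3-mDBD FSH, 696.3 in FOXOA3 FSH, 313.2 in GFP FSH and 76.8 in GFP vehicle, at least 85.2-fold higher.

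Secreted proteins and regulators were also in this group. Spp1, osteopontin, a secreted glycoprotein bound by integrins, had a signal of 22972 in FOXOA3-mDBD FSH, 720.7 in FOXOA3 FSH, 574.9 in GFP FSH and 451.8 in GFP vehicle, 50.8-fold higher. Fgf9, a fibroblast growth factor, had 4465 in FOXOA3-mDBD FSH and 73.2 in GFP vehicle, at least 44.4-fold higher, and its second probe set gave a log2 ratio of 3.42. Prdm1, a transcriptional repressor known from plasma cell differentiation, had 4564 in FOXOA3-mDBD FSH and 29.0 in GFP vehicle, at least 45.4-fold higher. In FOXOA3 FSH the signal was 358.9 for Fgf9 and 537.7 for Prdm1, under the mutant. These signals were at least 3.57-fold (Fgf9) and 5.35-fold (Prdm1) above GFP vehicle. Slfn4 of the Schlafen family was at least 54.6-fold higher, the ephrin receptor gene Epha3 at least 67.2-fold, Exoc6 of the exocyst 41.5-fold, Tspan33 of the tetraspanin family at least 40.4-fold, Serpini1, which encodes neuroserpin, 40.2-fold, and Scn1a, a voltage-gated sodium channel subunit, at least 40.0-fold. Probe sets of a gene differed in the size of the ratio: 3 probe sets for Tspan33 gave log2 ratios between 0.66 and 5.33, and 3 for Epha3 between 1.81 and 6.07. The remaining 2 of the 15 highest, Cyp11a1 and Isg15, are described with steroid synthesis and with the interferon genes.

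At the lower end stood genes that were bright in GFP vehicle, secreted and matrix proteins among them. Ccn3, a matricellular protein, had a signal of 206.2 in FOXOA3-mDBD FSH, 12767 in FOXOA3 FSH, 1761 in GFP FSH and 11613 in GFP vehicle, 56.3-fold lower. Adamts5, a protease that cleaves aggrecan and versican, had 205.0 in FOXOA3-mDBD FSH, 4877 in FOXOA3 FSH, 714.5 in GFP FSH and 9318 in GFP vehicle, 45.5-fold lower. Tnfrsf11b, osteoprotegerin, the decoy receptor for RANKL, had 442.0 in FOXOA3-mDBD FSH, 3718 in FOXOA3 FSH, 81.1 in GFP FSH and 9802 in GFP vehicle, 22.2-fold lower. In all 3 the GFP FSH array was also well under GFP vehicle, and FOXOA3 FSH was nearer to vehicle than either. Mmp11, a metalloprotease, had another pattern, with 170.8 in FOXOA3-mDBD FSH, 2109 in FOXOA3 FSH, 3224 in GFP FSH and 3054 in GFP vehicle, 17.9-fold lower in the mutant cells and 1.06-fold apart between the GFP arrays. Ptges, a prostaglandin E synthase, was 21.5-fold lower (218.1 in FOXOA3-mDBD FSH and 4688 in GFP vehicle), Fstl1, a secreted follistatin-like glycoprotein, 20.7-fold (167.8 in FOXOA3-mDBD FSH and 3482 in GFP vehicle), and Mcam, a cell adhesion molecule, at least 19.3-fold (38.8 in FOXOA3-mDBD FSH and 1937 in GFP vehicle). Further members of the 15 lowest were Zcchc18 (30.2-fold), Col11a1 (25.6-fold), Pamr1 (24.6-fold), C19h1orf198 (22.3-fold), Lmcd1 (at least 20.7-fold) and Pdlim3 (at least 19.7-fold), and Col3a1 and Acta2 are given with the matrix and actin genes. Probe sets for Col11a1 gave log2 ratios between -6.28 and -0.96, and those for Mcam between -4.27 and -0.89.

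Steroidogenesis genes lay on both sides of vehicle in FOXOA3-mDBD FSH. Of 15 measured genes, 7 were at least 2-fold higher (46.7%) and 5 lower (33.3%), and their median log2 ratio was 0.76 against -0.17 over all measured genes. Cyp11a1, which cleaves the cholesterol side chain, had a signal of 8979 in FOXOA3-mDBD FSH, 9809 in FOXOA3 FSH, 22700 in GFP FSH and 173.5 in GFP vehicle, 51.8-fold higher than vehicle. Star, which carries cholesterol into the mitochondrion, had 2976 in FOXOA3-mDBD FSH, 5854 in FOXOA3 FSH, 12092.5 in GFP FSH and 247.1 in GFP vehicle, 12.0-fold higher. Fdx1, the electron donor to CYP11A1, had 16481 in FOXOA3-mDBD FSH, 12534 in FOXOA3 FSH, 25366 in GFP FSH and 2752 in GFP vehicle, 5.99-fold higher. In these 3 genes each FSH array was above GFP vehicle and GFP FSH was the highest. The other 4 higher members, of which Cyp19a1 follows, included Hsd3b1 (log2 1.32), Cyp1b1 (1.52) and Hsd11b1 (at least 1.01), which are named after their values were seen.

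The next 4 genes of estradiol synthesis and hormone reception were well under their GFP FSH signal in FOXOA3-mDBD FSH. Cyp19a1, aromatase, had a signal of 274.8 in FOXOA3-mDBD FSH, 725.5 in FOXOA3 FSH, 13042 in GFP FSH and 35 in GFP vehicle, at least 2.73-fold higher than vehicle. The mutant signal was thus above vehicle, and it was 47.5-fold lower than GFP FSH. Because its vehicle signal was under the floor, the log2 ratio of Cyp19a1 to vehicle depended on the processing, between 0.48 with the mean of its probe sets and 2.97 with a floor at the 25th percentile. Lhcgr, the luteinizing hormone receptor, had 185.5 in FOXOA3-mDBD FSH, 497.4 in FOXOA3 FSH, 4402 in GFP FSH and 20.0 in GFP vehicle, at least 1.85-fold higher. Its log2 ratio to vehicle, a bound of 0.88, ran between 0.44 and 2.76 over the alternatives and was past 2-fold under 4 of them, the lower floor, a pseudocount, centring and loess. Hsd17b1, which reduces estrone to estradiol, had 961.2 in FOXOA3-mDBD FSH and 725.4 in GFP vehicle, 1.33-fold higher, against 4564 in GFP FSH. Prlr, the prolactin receptor, had 925.1 in FOXOA3-mDBD FSH, 1210.5 in FOXOA3 FSH, 5042 in GFP FSH and 97.4 in GFP vehicle, at least 9.20-fold higher, and its second probe set gave a log2 ratio of 0.68.

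Among the 5 lower steroidogenesis genes were the nuclear receptors Nr5a1 and Nr0b1. Nr5a1, steroidogenic factor 1, an activator of steroid enzyme genes, had a signal of 243.1 in FOXOA3-mDBD FSH, 1506 in FOXOA3 FSH, 1800.2 in GFP FSH and 1214 in GFP vehicle, 4.99-fold lower. Nr0b1, DAX1, a repressor of NR5A1-driven transcription, had 208.1 in FOXOA3-mDBD FSH, 507.9 in FOXOA3 FSH, 221.9 in GFP FSH and 1360 in GFP vehicle, 6.53-fold lower. Nr5a1 was low on the mutant array alone, whereas Nr0b1 was low on each FSH array. Nr5a2, another nuclear receptor of the list and named after its value was seen, was not lower, with 3736 in FOXOA3-mDBD FSH, 4195 in FOXOA3 FSH, 10820.2 in GFP FSH and 2210.2 in GFP vehicle, 1.69-fold higher and inside 2-fold. Akr1c3 (log2 -2.32), the mitochondrial outer membrane protein Tspo (-1.67) and Hsd17b4 (-1.13), named after their values were seen, were the other lower members. The comparisons FOXOA3-mDBD FSH against GFP FSH, FOXOA3 FSH against GFP vehicle and GFP FSH against GFP vehicle each share an array with this one, and over the list their median log2 ratios were -1.76, 0.82 and 1.83.

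**Figure D2:**
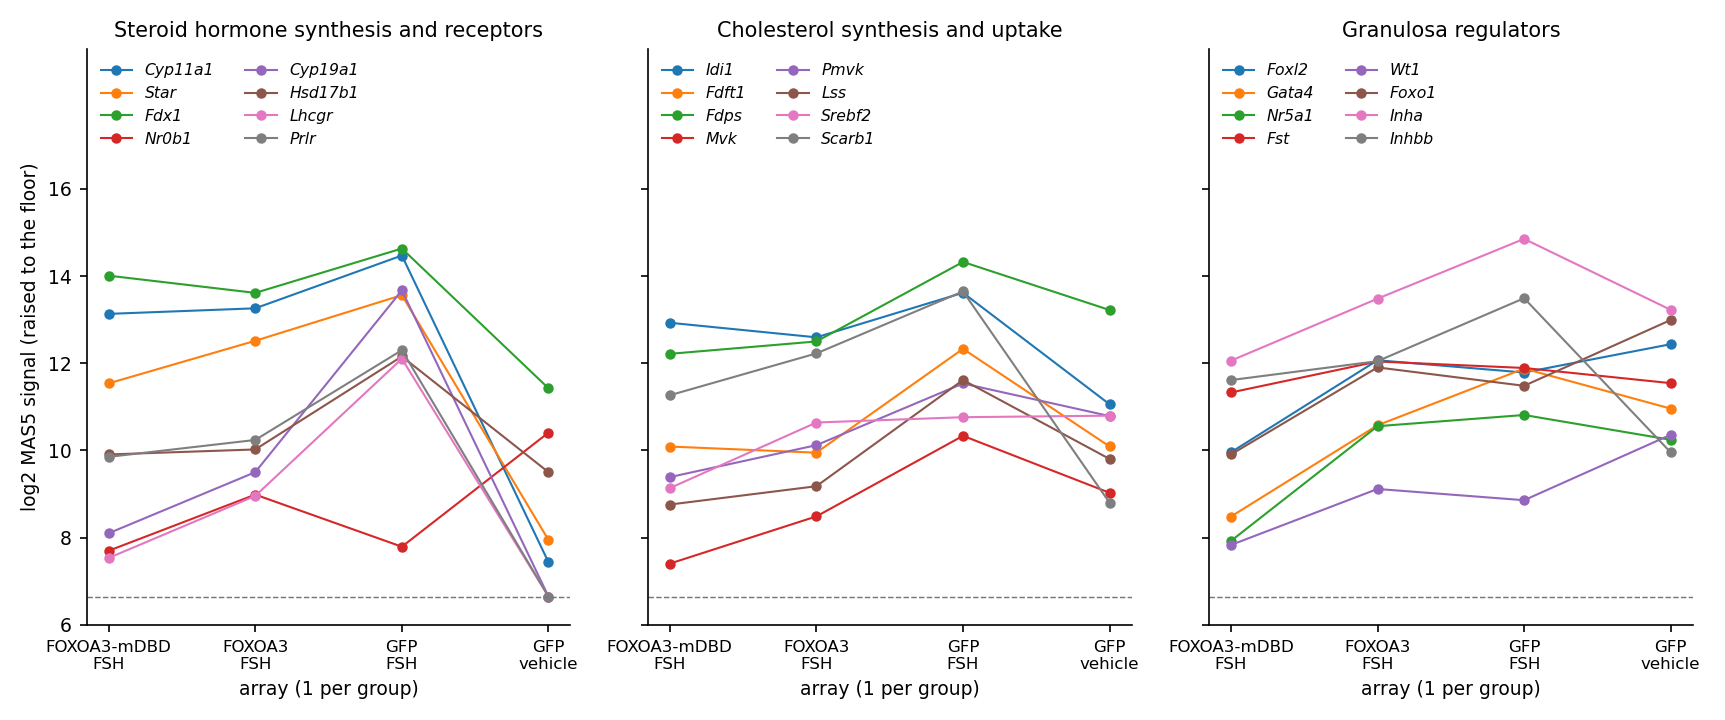
Log2 MAS5 signal of 24 genes on the FOXOA3-mDBD FSH, FOXOA3 FSH, GFP FSH and GFP vehicle arrays, 1 point per array, in panels for steroid synthesis and receptors, cholesterol synthesis and uptake, and granulosa regulators. Lines join the points of a gene and the dashed line is the floor. Cyp11a1, Star and Fdx1 lie above GFP vehicle on every FSH array, Cyp19a1 and Lhcgr are lower in FOXOA3-mDBD FSH than on the other FSH arrays, and Gata4 and Nr5a1 are lowest in FOXOA3-mDBD FSH.

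Cholesterol synthesis enzymes, which supply the substrate of steroidogenesis, mostly lay within 2-fold of vehicle, 12 of 17 measured genes. Of the rest 1 was higher (5.88%) and 4 lower (23.5%, against 22.5% of all measured genes), and the median log2 ratio was -0.49. Idi1, isopentenyl-diphosphate isomerase, was the higher one, with 7795 in FOXOA3-mDBD FSH, 6185 in FOXOA3 FSH, 12556 in GFP FSH and 2133 in GFP vehicle, 3.65-fold higher. Mvk, mevalonate kinase, had 169.6 in FOXOA3-mDBD FSH, 359.2 in FOXOA3 FSH, 1292 in GFP FSH and 522.5 in GFP vehicle, 3.08-fold lower. Pmvk, the kinase of the next step, had 670.6 in FOXOA3-mDBD FSH and 1769 in GFP vehicle, 2.64-fold lower. Fdft1, squalene synthase, was level at 1090.3 in FOXOA3-mDBD FSH and 1091 in GFP vehicle, against 5150 in GFP FSH. Lss, lanosterol synthase, and Fdps, farnesyl diphosphate synthase, passed 2-fold narrowly, at 2.06-fold and 2.01-fold lower. The call of Fdps was lost when ratios were centred (log2 -0.83) and with a pseudocount. That of Lss was lost under more alternatives: a 75th percentile floor, a pseudocount, quantile normalization, centring, loess and the mean of probe sets. Its log2 ratio came as near to 0 as -0.34, and its second probe set gave 0.37. Over the list the median log2 ratio was -2.24 for FOXOA3-mDBD FSH against GFP FSH, -0.14 for FOXOA3 FSH against GFP vehicle and 1.81 for GFP FSH against GFP vehicle.

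The regulators of these enzymes were lower as a list. SREBP2 and SREBP1, encoded by Srebf2 and Srebf1, are membrane-bound factors that SCAP escorts and the site proteases MBTPS1 and MBTPS2 release when sterols are scarce. Of 11 measured SREBP regulators, 6 were lower (54.5%) and 1 higher (9.09%), with a median log2 ratio of -1.12. Srebf2 had 562.8 in FOXOA3-mDBD FSH, 1597 in FOXOA3 FSH, 1738 in GFP FSH and 1781 in GFP vehicle, 3.16-fold lower. Srebf1 had 285.3 in FOXOA3-mDBD FSH, 634.4 in FOXOA3 FSH, 2068 in GFP FSH and 856.3 in GFP vehicle, 3.0-fold lower. On the mutant array both factors were the lowest of the 4. Mbtps1 was 2.66-fold lower and Scap 2.20-fold, whereas Mbtps2 was 1.04-fold apart. Nfya, which encodes part of the CCAAT box factor NF-Y, was 3.08-fold lower, with a second probe set at -0.01. Insig2, which retains SCAP in the endoplasmic reticulum, was the higher member (log2 1.02) and Sp1 the last lower one (-1.12), both named after their values were seen. The list's median was between -0.95 and -0.57 with centring, loess, a floor at the 75th percentile or the mean of probe sets, inside 2-fold.

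Cholesterol and lipid handling was mixed. Scarb1, the receptor for high-density lipoprotein, had a signal of 2463 in FOXOA3-mDBD FSH, 4790.2 in FOXOA3 FSH, 12829 in GFP FSH and 445.9 in GFP vehicle, 5.52-fold higher than vehicle. The endocytic receptors Lrp1 and Vldlr were 4.88-fold and 3.98-fold lower, and Lipa, the lysosomal lipase that frees cholesterol from its esters, 3.89-fold lower. Soat1, which esterifies cholesterol, was 1.05-fold apart. Of the 16 measured genes for uptake, storage and efflux 2 were higher (12.5%) and 4 lower (25%), near the shares of all genes, and their median log2 ratio was -0.25, between -0.28 and 0.08 over the alternatives. The second higher gene was Osbpl1a (2.53-fold), whose probe sets ran between 0.25 and 2.46, and the remaining lower one, named after its value was seen, was the lipid droplet gene Plin2 (log2 -1.01). In fatty acid and glycerolipid synthesis 1 of 22 measured genes was higher (4.55%) and 4 were lower (18.2%), and the median was -0.26. Scd, stearoyl-CoA desaturase, had 4023 in FOXOA3-mDBD FSH, 1829 in FOXOA3 FSH, 4676 in GFP FSH and 692.2 in GFP vehicle, 5.81-fold higher. Fasn, fatty acid synthase, had 641.2 in FOXOA3-mDBD FSH, 1256 in FOXOA3 FSH, 3553.5 in GFP FSH and 2218 in GFP vehicle, 3.46-fold lower. Scd therefore stood near its GFP FSH level and Fasn under its GFP vehicle level. The desaturase Fads1 was 3.39-fold lower, Acss2, which makes acetyl-CoA from acetate, 2.94-fold and Fads2 at least 2.06-fold, while Acaca, acetyl-CoA carboxylase, was 1.03-fold apart.

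Of 18 measured genes of the gonadotropin and cyclic AMP response, 8 were at least 2-fold higher (44.4%, against 13.0% of all measured genes) and 4 lower (22.2%, against 22.5%), with a median log2 ratio of 0.82, which ranged between 0.04 and 0.99 over the processing alternatives. Crem, a cyclic AMP-responsive transcription factor, had 2071 in FOXOA3-mDBD FSH, 1240.4 in FOXOA3 FSH, 2235 in GFP FSH and 684.9 in GFP vehicle, 3.02-fold higher, and its 4 probe sets ran between 0.33 and 1.60. The higher members outside the named rule were the phosphodiesterases Pde4b, Pde4d and Pde7a, the nuclear receptors Nr4a2 and Nr4a3 and the G-protein regulator Rgs2. Their log2 ratios were 1.5 for Pde4b, 1.47 for Pde7a and 1.04 for Rgs2, and at least 1.23 for Pde4d, 1.20 for Nr4a2 and 1.10 for Nr4a3, whose GFP vehicle signals were under the floor. Creb1, which binds cyclic AMP response elements, was level at 955.3 in FOXOA3-mDBD FSH and 955.8 in GFP vehicle. Prkaca, a catalytic subunit of protein kinase A, was 3.43-fold lower. Akap12, a scaffold that anchors protein kinase A, had 92.1 in FOXOA3-mDBD FSH, 786.5 in FOXOA3 FSH, 121.8 in GFP FSH and 1587 in GFP vehicle, at least 15.8-fold lower, and the endocytic adaptor Dab2 was 4.42-fold lower. These 2 were low on both the mutant array and the GFP FSH array.

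Among EGF-like ligands and early-response genes 3 of 20 measured members were higher (15%) and 8 lower (40%), with a median log2 ratio of -0.19 (-0.22 to 0.03 over the alternatives). Areg, amphiregulin, a ligand of the EGF receptor that mediates gonadotropin action in the follicle, had a signal of 4537 in FOXOA3-mDBD FSH, 1383 in FOXOA3 FSH, 3079 in GFP FSH and 126.2 in GFP vehicle, 36.0-fold higher than vehicle. Ptgs2, prostaglandin synthase 2, had 570.1 in FOXOA3-mDBD FSH, 406.1 in FOXOA3 FSH, 403.6 in GFP FSH and 27.4 in GFP vehicle, at least 5.67-fold higher. For both ligand and enzyme the mutant array was the highest of the 4. Egr2 was 3.32-fold higher. Dusp1, a phosphatase that inactivates MAP kinases, had 800.4 in FOXOA3-mDBD FSH, 3417 in FOXOA3 FSH, 1333.5 in GFP FSH and 6046 in GFP vehicle, 7.55-fold lower, with a second probe set at -0.80. Fosl2 was at least 6.27-fold lower and Fos 1.12-fold lower. The Areg promoter is shown because this gene had the highest ratio of the list and because its promoter holds a cyclic AMP response element, TGACGTCA, in capitals, 91 bases before the annotated start. The window is 250 bases before to 50 after the start, from RefSeq (GRCr8, chr14:17265592-17265891, minus strand).
Areg: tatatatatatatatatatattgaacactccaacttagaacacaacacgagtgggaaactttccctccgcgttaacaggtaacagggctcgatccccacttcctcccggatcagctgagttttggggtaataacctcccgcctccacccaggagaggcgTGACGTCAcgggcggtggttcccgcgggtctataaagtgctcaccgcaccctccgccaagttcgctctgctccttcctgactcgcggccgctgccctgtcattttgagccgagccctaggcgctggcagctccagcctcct
This motif, counted on both strands, was in 2.0% of the 27457 genes with a promoter in that table, in 3.48% of measured genes with one and in 1 of 75 promoters (1.33%) of the 100 highest genes. None of the 10 steroidogenesis promoters in the table held it.

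The granulosa marker list did not lie to 1 side: of 12 measured markers 2 were higher (16.7%) and 4 lower (33.3%). The shares of all measured genes were 13.0% higher and 22.5% lower. The list's median log2 ratio was 0.01, and it changed sign with the processing, between -0.35 and 0.18. Foxl2, a forkhead factor that maintains granulosa cell fate, had a signal of 994.1 in FOXOA3-mDBD FSH, 4297 in FOXOA3 FSH, 3536 in GFP FSH and 5546 in GFP vehicle, 5.58-fold lower. Gata4, which acts with NR5A1 on steroidogenic promoters and is not in that list, had 358.1 in FOXOA3-mDBD FSH, 1529 in FOXOA3 FSH, 3762 in GFP FSH and 1992 in GFP vehicle, 5.56-fold lower, with a second probe set at -0.06. Wt1, a zinc-finger factor of early granulosa cells, had 228.0 in FOXOA3-mDBD FSH, 555.4 in FOXOA3 FSH, 464.6 in GFP FSH and 1315 in GFP vehicle, 5.77-fold lower. In Foxl2, Gata4 and Wt1 the mutant array was the lowest of the 4. Nr5a2, the nuclear receptor given above, is a marker of the same list and was 1.69-fold higher, so that not every factor of these cells was lower. The summed signal of the markers was 50435 in FOXOA3-mDBD FSH and 52968 in GFP vehicle. Without Gja1, the brightest marker in FOXOA3-mDBD FSH, the sums were 28471 in FOXOA3-mDBD FSH and 34626 in GFP vehicle. In cultures measured as a whole, fewer cells of a type and less RNA per cell cannot be told apart.

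In the inhibin, activin, BMP and TGF-beta family 4 of 27 measured genes were higher (14.8%, against 13.0% of all measured genes) and 10 lower (37.0%, against 22.5%), and the median log2 ratio was -0.41. Inha, the inhibin alpha subunit, had 4267 in FOXOA3-mDBD FSH, 11433 in FOXOA3 FSH, 29569 in GFP FSH and 9571 in GFP vehicle, 2.24-fold lower, a call that centring brought to a log2 ratio of -1.0, just inside 2-fold. Inhbb, the beta B subunit shared by inhibin and activin, had 3135 in FOXOA3-mDBD FSH, 4235 in FOXOA3 FSH, 11519 in GFP FSH and 992.7 in GFP vehicle, 3.16-fold higher. The alpha and beta B subunits thus lay on opposite sides of vehicle. Acvr2a, an activin receptor, had 3641 in FOXOA3-mDBD FSH, 1782 in FOXOA3 FSH, 435.7 in GFP FSH and 625.4 in GFP vehicle, 5.82-fold higher. Amhr2, the receptor for anti-Müllerian hormone, was 2.68-fold lower, and Fst, follistatin, which binds activin, was 1.16-fold lower. Bmp4 had 80.5 in FOXOA3-mDBD FSH, 218.2 in FOXOA3 FSH, 111.2 in GFP FSH and 1446 in GFP vehicle, at least 14.4-fold lower, Tgfb2 was 4.77-fold lower and the inhibitory Smad6 at least 3.86-fold. Smad1, which carries BMP signals, was 1.01-fold apart. The remaining higher members, named after their values were seen, were Id4 (log2 1.21) and Smad7 (1.04).

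Of 15 measured WNT pathway genes 8 were lower (53.3%) and 1 higher (6.67%), with a median log2 ratio of -1.06, but under 7 of 9 alternatives that median lay inside 2-fold, and it was 0.00 without the filter on dim genes. Dkk3, a secreted member of the Dickkopf family, had 344.8 in FOXOA3-mDBD FSH and 4806 in GFP vehicle, 13.9-fold lower, with a second probe set at -0.59, and the receptors Fzd2, Fzd4 and Fzd1 were 9.89-fold, at least 5.98-fold and 3.23-fold lower. The intracellular adaptor Dvl1 was 2.96-fold lower. The higher member, Sfrp4 (at least 1.41 in log2), was named after its value was seen. In the Notch pathway 8 of 14 genes were measured, of which 2 were higher (25%) and 1 lower (12.5%). All measured genes had shares of 13.0% higher and 22.5% lower. The Notch median was -0.16 (-0.53 to 0.01 over the alternatives). Hey1, a transcriptional repressor downstream of Notch, had 16138 in FOXOA3-mDBD FSH, 955.2 in FOXOA3 FSH, 144.3 in GFP FSH and 517.5 in GFP vehicle, 31.2-fold higher. Its relative Hey2 was 2.54-fold higher, while Hes1, another Notch target, was 3.19-fold lower. Rbpj, the DNA-binding partner of the Notch intracellular domain, was 1.07-fold apart, and the receptors Notch1 and Notch2 were not above the floor on either array.

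Of 19 measured insulin and IGF signalling genes 7 were lower (36.8%, against 22.5% of all measured genes) and 1 higher (5.26%, against 13.0%), with a median log2 ratio of -0.88. Foxo1 itself had a signal of 960.9 in FOXOA3-mDBD FSH, 3834.5 in FOXOA3 FSH, 2862 in GFP FSH and 8149 in GFP vehicle, 8.48-fold lower, and its second probe set gave -0.67. Since neither the species of the insert nor the part of the messenger that these probes cover is known, this signal does not check the vectors. Igf1r, the IGF1 receptor, had 1006 in FOXOA3-mDBD FSH, 3352 in FOXOA3 FSH, 4235.5 in GFP FSH and 4116 in GFP vehicle, 4.09-fold lower. Akt1, the kinase that phosphorylates FOXO1, was 3.79-fold lower and Igf2r, which clears IGF2, 3.45-fold lower. Igf1r and Akt1 were low on the mutant array and within 2-fold of vehicle on the other FSH arrays. Igfbp5, an IGF-binding protein, was 12.8-fold lower, with 4 probe sets between -3.67 and -0.07. Igf1 was 7429 in FOXOA3-mDBD FSH and 7579 in GFP vehicle, 1.02-fold apart, against 2437 in GFP FSH, but its other 2 probe sets were lower in FOXOA3-mDBD FSH, at log2 ratios of -1.51 and -0.98. The higher member was Irs2 (log2 1.02), an adaptor of the insulin receptor, named after its value was seen.

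Genes known as FOXO targets lay on both sides of vehicle, with more of them lower. Of 29 measured members 4 were higher (13.8%, against 13.0% of all measured genes) and 10 lower (34.5%, against 22.5%). Ratios were above 0 in 9 members and below 0 in 20, and the median log2 ratio was -0.24. This was close to the median of all measured genes, -0.17, most of which thus also had ratios below 0. Ddit4, an inhibitor of mTORC1, had 2039 in FOXOA3-mDBD FSH, 3360.2 in FOXOA3 FSH, 10827 in GFP FSH and 180.3 in GFP vehicle, 11.3-fold higher. Sesn1, a sestrin, had 1823 in FOXOA3-mDBD FSH, 859.9 in FOXOA3 FSH, 536.8 in GFP FSH and 489.9 in GFP vehicle, 3.72-fold higher. Pik3ip1, an inhibitor of phosphatidylinositol 3-kinase, had 322.1 in FOXOA3-mDBD FSH, 1426 in FOXOA3 FSH, 337.9 in GFP FSH and 3581 in GFP vehicle, 11.1-fold lower. Gadd45g and Gadd45b, growth arrest genes, were 4.36-fold and 3.13-fold lower, and Txnip, which restrains glucose uptake, was 1.00-fold apart. The other higher members, Irs2 and Cdkn1b (log2 1.19), were named after their values were seen. The 7-base forkhead site GTAAACA was in the promoters of 2 of 75 of the 100 highest genes (2.67%) and 3 of 68 of the 100 lowest (4.41%), against 2.68% of measured genes and 4.13% of all genes in the table.

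Interferon-stimulated genes were higher in FOXOA3-mDBD FSH. These genes are induced by type I interferon or by viral nucleic acid through transcription factors that bind an interferon-stimulated response element. Of 33 measured members 19 were at least 2-fold higher (57.6%, against 13.0% of all measured genes) and 1 lower (3.03%, against 22.5%). Ratios were above 0 in 30 of the 33, while the median log2 ratio of all measured genes was -0.17. A measured gene with its GFP vehicle signal at the floor, such as Isg15, could only have a ratio above 0. The list's median log2 ratio was 1.15 and became 0.89 with a floor at the 75th percentile. Isg15, a ubiquitin-like antiviral protein, had a signal of 4805 in FOXOA3-mDBD FSH, 2103 in FOXOA3 FSH, 154.4 in GFP FSH and 79.3 in GFP vehicle, at least 47.8-fold higher than vehicle. Irf7, a transcription factor that amplifies the response, had 5623 in FOXOA3-mDBD FSH, 1742.5 in FOXOA3 FSH, 151.9 in GFP FSH and 329.1 in GFP vehicle, 17.1-fold higher. Cxcl10, a chemokine that attracts T cells, had 2372 in FOXOA3-mDBD FSH, 699.8 in FOXOA3 FSH, 71.2 in GFP FSH and 110.3 in GFP vehicle, 21.5-fold higher. In each of the 3 the 2 arrays with a FOXO1 vector were above both GFP arrays, and the mutant was the highest. The antiviral GTPase Mx2 was 19.0-fold higher and Rsad2, viperin, at least 16.4-fold, while Ifi27 was 1.04-fold apart. The lower member, named after its value was seen, was Tap2, a subunit of the peptide transporter of antigen presentation (a log2 ratio of -1.19 or below). All cells compared had received an adenovirus, in an amount that is not known.

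The promoters of 3 of these genes are shown because they hold the core of the interferon-stimulated response element, TTTCNNTTT, in capitals. Ifit3, an antiviral tetratricopeptide protein that was at least 12.1-fold higher, was chosen after its value was seen. Each is the window of 300 bases around the annotated start from RefSeq (GRCr8), Irf7 at chr1:205799974-205800273 on the minus strand, Rsad2 at chr6:48788071-48788370 on the minus strand and Ifit3 at chr1:241527076-241527375 on the plus strand.
Irf7: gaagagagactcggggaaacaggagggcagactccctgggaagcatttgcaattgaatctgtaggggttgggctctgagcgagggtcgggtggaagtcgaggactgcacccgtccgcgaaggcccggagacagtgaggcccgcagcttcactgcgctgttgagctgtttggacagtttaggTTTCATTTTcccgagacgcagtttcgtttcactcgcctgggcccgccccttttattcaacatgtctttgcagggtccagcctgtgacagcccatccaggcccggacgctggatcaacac
Rsad2: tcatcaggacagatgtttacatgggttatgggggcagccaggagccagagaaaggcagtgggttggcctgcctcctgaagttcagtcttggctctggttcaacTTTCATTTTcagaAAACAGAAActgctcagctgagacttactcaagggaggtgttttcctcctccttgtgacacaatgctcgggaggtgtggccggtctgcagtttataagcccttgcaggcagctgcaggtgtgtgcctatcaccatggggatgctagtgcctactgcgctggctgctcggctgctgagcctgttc
Ifit3: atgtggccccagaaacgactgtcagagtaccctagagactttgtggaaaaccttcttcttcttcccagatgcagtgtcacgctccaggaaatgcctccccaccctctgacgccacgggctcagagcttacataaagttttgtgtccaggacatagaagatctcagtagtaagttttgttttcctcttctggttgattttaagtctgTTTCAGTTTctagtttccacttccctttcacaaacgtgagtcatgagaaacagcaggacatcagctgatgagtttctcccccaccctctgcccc
The core lay 69 bases before the start in Irf7, 147 and 134 bases before it in Rsad2, the 134-base match on the other strand, and 44 bases before it in Ifit3. It was present on either strand in 19 of the 27 interferon list members with a promoter in the table (70.4%), in 8.17% of the 8284 measured genes with one and in 12.4% of all 27457 genes. Among the 100 genes with the highest ratios 12 of 75 promoters held it (16%), and among the 100 with the lowest 2 of 68 (2.94%). Within the interferon list the core did not mark the higher members alone. It was in the promoters of Ifi27, Psmb10 and Tap2, which were not higher. The promoters of Oasl, Herc6 and Mx1, which were at least 2-fold higher, did not hold it. These genes were picked after their values were seen. A match describes these letters in this window and not a bound site. Isg15 and Mx2 had no promoter in the table.

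Inflammatory genes did not follow the interferon list. Of 21 NF-kB targets and components only 12 were above the floor, with 1 higher (8.33%), 3 lower (25%) and a median log2 ratio of -0.50 (-0.50 to 0.04 over the alternatives). Rela, the p65 subunit of NF-kB, had 534.6 in FOXOA3-mDBD FSH, 2219 in FOXOA3 FSH, 1006.5 in GFP FSH and 2607 in GFP vehicle, 4.88-fold lower. Nfkb2, another subunit, was 2.83-fold lower and Nfkbiz, an inducible nuclear cofactor, 2.34-fold higher. Nfkbia, the inhibitor that is itself an NF-kB target, was 1.05-fold apart, and Tnf, Il1b and Il6 were at or under the floor on both arrays.

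**Figure D3:**
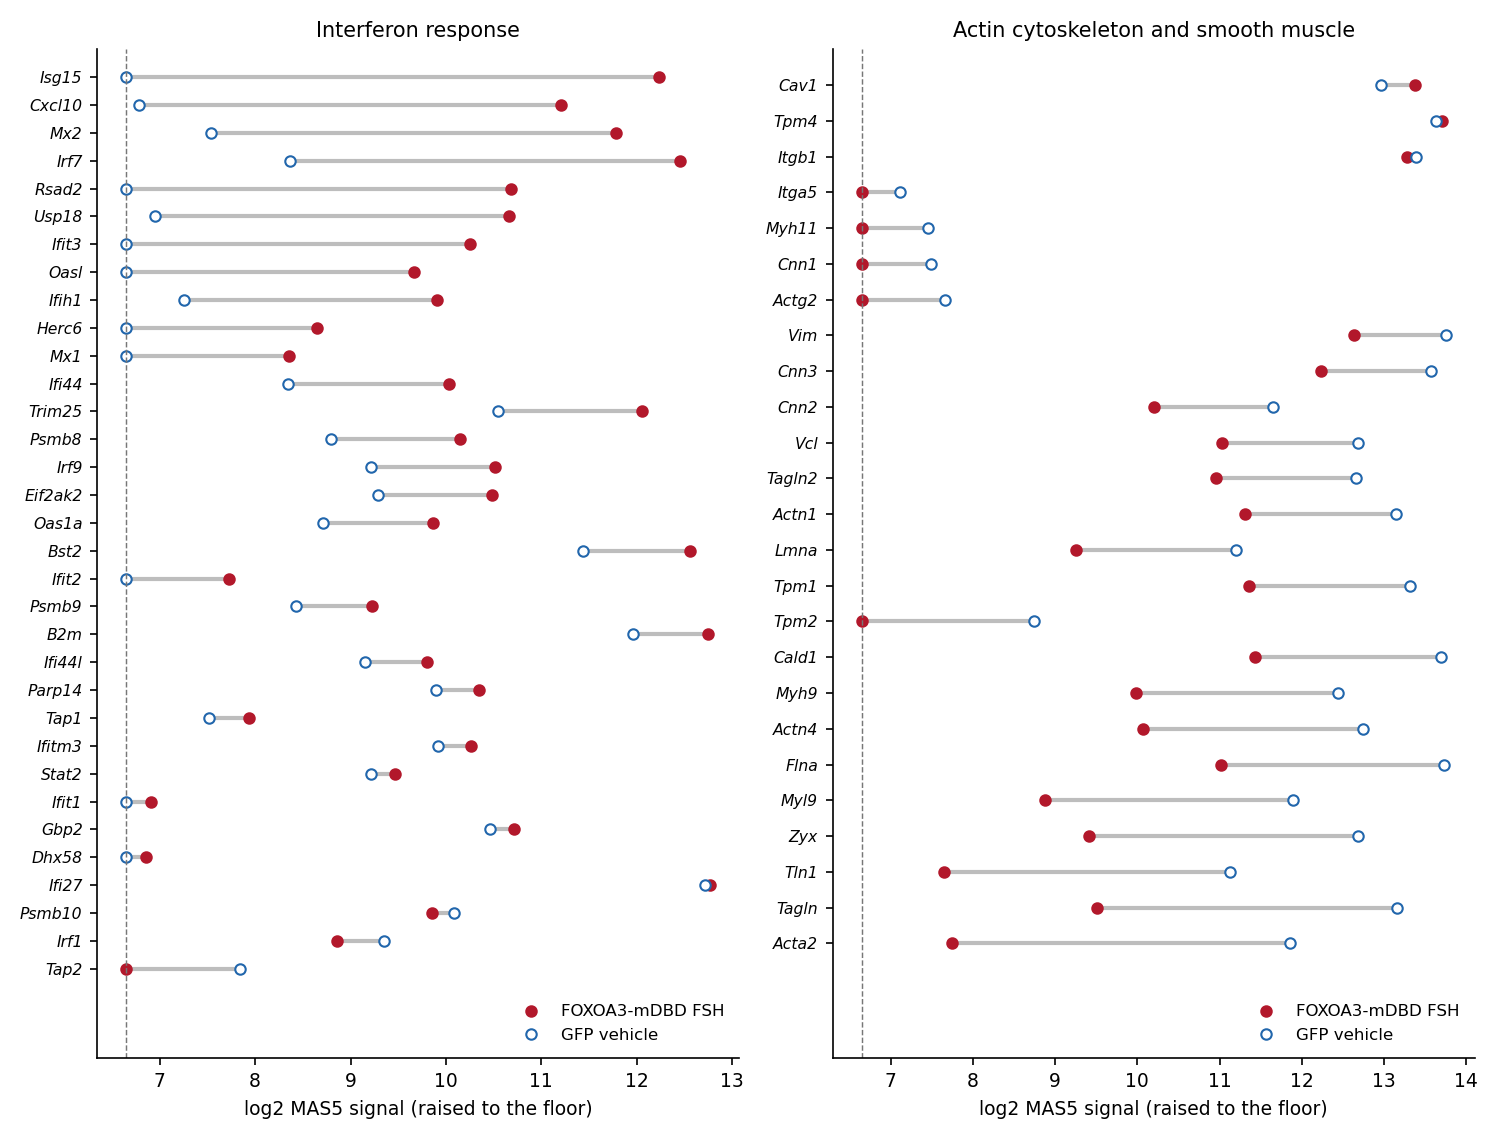
Log2 MAS5 signals, raised to the floor where lower, of the 33 measured interferon response genes (left) and the 25 measured actin cytoskeleton and smooth muscle genes (right), 1 gene per row, ordered by ratio. Filled red points are the FOXOA3-mDBD FSH array and open blue points the GFP vehicle array, joined by a grey line, and the dashed line is the floor. Red lies to the right in 30 interferon genes and to the left in 23 actin genes.

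Actin cytoskeleton and smooth muscle genes had the lowest median of the 25 lists with at least 5 measured members. Of 25 measured members 19 were at least 2-fold lower and 0 higher, where 22.5% of measured genes were lower, and the median log2 ratio was -1.84. Acta2, smooth muscle actin, had a signal of 214.6 in FOXOA3-mDBD FSH, 593.7 in FOXOA3 FSH, 192.4 in GFP FSH and 3711 in GFP vehicle, 17.3-fold lower. Tagln, transgelin, an actin-binding protein, had 728.3 in FOXOA3-mDBD FSH, 3238 in FOXOA3 FSH, 902.2 in GFP FSH and 9167 in GFP vehicle, 12.6-fold lower. Myl9, a myosin light chain, had 471.1 in FOXOA3-mDBD FSH, 1003 in FOXOA3 FSH, 513.2 in GFP FSH and 3816 in GFP vehicle, 8.10-fold lower. In these 3 contractile genes the mutant and GFP FSH arrays lay close together and FOXOA3 FSH lay between them and vehicle. The focal adhesion genes Tln1 (talin) and Zyx (zyxin) were 11.1-fold and 9.69-fold lower, and Tpm4, a tropomyosin, was 1.05-fold apart. Over the list the median log2 ratio was -0.16 for FOXOA3-mDBD FSH against GFP FSH, -0.82 for FOXOA3 FSH against GFP vehicle and -1.92 for GFP FSH against GFP vehicle, comparisons that share arrays with this one. The 3′ beta-actin control probe set, which has no single gene symbol, was also lower, at 7391.5 in FOXOA3-mDBD FSH and 17446 in GFP vehicle. It did not follow the list on every array, being 13778 in GFP FSH and 14362 in FOXOA3 FSH.

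Extracellular matrix genes were also lower as a list. Of 37 measured members 26 were lower (70.3%) and 3 higher (8.11%), with a median log2 ratio of -1.52, and 9 more of the list were at or under the floor on both arrays. Col3a1, a fibrillar collagen chain, had 82.0 in FOXOA3-mDBD FSH, 7556 in FOXOA3 FSH, 170.0 in GFP FSH and 2607 in GFP vehicle, at least 25.9-fold lower. Lox, which crosslinks collagen and elastin, had 899.0 in FOXOA3-mDBD FSH, 10218 in FOXOA3 FSH, 1656 in GFP FSH and 14022 in GFP vehicle, 15.6-fold lower. Both were high with FOXOA3 and with vehicle and low on the mutant and GFP FSH arrays. Fbln5, an elastic fibre protein, had 71.7 in FOXOA3-mDBD FSH, 151.2 in FOXOA3 FSH, 240.4 in GFP FSH and 1358 in GFP vehicle, at least 13.5-fold lower. Spp1, Aspn and Nid2 were the 3 higher members. Aspn, asporin, a small leucine-rich proteoglycan, had 11514 in FOXOA3-mDBD FSH, 3305 in FOXOA3 FSH, 22.4 in GFP FSH and 1099 in GFP vehicle, 10.5-fold higher, and Nid2, a basement membrane protein named after its value was seen, was at least 2.92 higher in log2. Dcn, decorin, of the same proteoglycan family as Aspn, went the other way, with 205.7 in FOXOA3-mDBD FSH, 12504 in FOXOA3 FSH, 485.2 in GFP FSH and 624.1 in GFP vehicle, 3.03-fold lower. The list's median log2 ratio was -0.83 for FOXOA3-mDBD FSH against GFP FSH, -0.32 for FOXOA3 FSH against GFP vehicle and -0.71 for GFP FSH against GFP vehicle.

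These genes overlap with markers of other ovarian cells, whose signals were summed over all list members on the array. Of 15 theca, stroma and smooth muscle markers 10 were measured, 6 of them lower (60%) and 1 higher (10%). Over all measured genes 22.5% were lower and 13.0% higher. The median log2 ratio of these markers was -1.36, and their summed signals were 16484 in FOXOA3-mDBD FSH and 27390 in GFP vehicle. Aspn alone made up 11514 of the FOXOA3-mDBD FSH sum, and without it the sums were 4970.3 in FOXOA3-mDBD FSH and 26291 in GFP vehicle. Cyp17a1, the defining theca enzyme, Pdgfra and Pdgfrb were at or under the floor on both arrays. Part of this list is shared with the matrix and actin lists (Acta2, Tagln, Col3a1, Dcn, Aspn), and the part of a difference in cell makeup in those results was not tested. Only 3 of 9 leukocyte markers were measured, with summed signals of 1839 in FOXOA3-mDBD FSH and 2922 in GFP vehicle, and Ptprc, Cd68 and Cd3e were at or under the floor. Of 7 endothelial markers 2 were measured, with sums of 691.4 in FOXOA3-mDBD FSH and 580.4 in GFP vehicle, and Pecam1 and Vwf were dim. The oocyte markers (3 of 5 measured) summed to 1200 in FOXOA3-mDBD FSH and 442.7 in GFP vehicle, 1 of them being Gdf9, 3.66-fold higher. The surface epithelium markers (4 of 7 measured) summed to 747.1 in FOXOA3-mDBD FSH and 944.0 in GFP vehicle. Among leukocyte markers Cd14, a monocyte receptor, was 2.14-fold lower and Csf1r 1.73-fold lower, while Lyz2 was 1.36-fold higher. Tek of endothelium was at least 2.11-fold higher, and Kdr, the other measured endothelial marker, 1.59-fold lower. In surface epithelium Upk1b was at least 3.71-fold and Lrrn4 at least 1.24-fold higher, while Krt8 was 2.46-fold and Krt18 at least 1.86-fold lower.

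Of 38 measured cell cycle genes 13 were lower (34.2%, against 22.5% of all measured genes) and 4 higher (10.5%, against 13.0%), with a median log2 ratio of -0.46. Ccnd2, the cyclin D through which FSH drives granulosa cells into the cycle, had 1132 in FOXOA3-mDBD FSH, 2831 in FOXOA3 FSH, 6379 in GFP FSH and 2878 in GFP vehicle, 2.54-fold lower. Top2a, a topoisomerase of dividing cells, had 231.4 in FOXOA3-mDBD FSH, 481.6 in FOXOA3 FSH, 1404 in GFP FSH and 776.8 in GFP vehicle, 3.36-fold lower, and Cdk1, the mitotic kinase, was 2.89-fold lower. In these 3 genes the GFP FSH array was the highest. Rrm1, a subunit of ribonucleotide reductase, went the other way, with 4989 in FOXOA3-mDBD FSH, 1149 in FOXOA3 FSH, 2349 in GFP FSH and 1321 in GFP vehicle, 3.78-fold higher. The cyclin-dependent kinase inhibitor Cdkn2c was 2.64-fold higher, with a second probe set at -0.07. Cdkn1b and Mcm4 (log2 1.19 and 1.08), named after their values were seen, were the other higher members.

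The energy metabolism lists had medians near 0. In glycolysis 0 of 19 measured genes were higher and 4 lower (21.1%), and the median log2 ratio was -0.08 that changed sign with the processing (-0.20 to 0.09). Hk1, hexokinase, had 352.6 in FOXOA3-mDBD FSH and 1457 in GFP vehicle, 4.13-fold lower, and Pfkl, the liver form of phosphofructokinase, was at least 4.42-fold lower. Gpi, which converts glucose 6-phosphate to fructose 6-phosphate, was 3.09-fold lower and Pdk1, a kinase that inhibits pyruvate dehydrogenase, 2.72-fold lower. Aldoa was 1.90-fold lower, while Eno1, enolase, was level, with 6306.5 in FOXOA3-mDBD FSH and 6317 in GFP vehicle. Of 23 measured respiratory chain and ATP synthase genes 20 lay within 2-fold, with Ndufa8 2.12-fold higher and Ndufb5 and Atp5f1c 2.34-fold and 2.08-fold lower, and a median of 0.09 (-0.13 to 0.26 over the alternatives). Of 12 reference genes 11 lay within 2-fold, with a median of 0.30 (-0.01 after loess), and Rpl13a was 1.01-fold and Gapdh 1.39-fold apart, Gapdh being lower in FOXOA3-mDBD FSH. Gusb, 3.47-fold lower, was the exception, and Tbp lay just inside the threshold at 1.99-fold higher.

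Stress and survival genes divided. Of 26 measured genes of the integrated stress and unfolded protein responses 5 were higher and 4 lower, with a median log2 ratio of 0.28. Slc7a11, the cystine transporter, had 700.6 in FOXOA3-mDBD FSH, 568.4 in FOXOA3 FSH, 471.2 in GFP FSH and 102.8 in GFP vehicle, 6.82-fold higher. Psat1, of serine synthesis, was 5.59-fold higher, and Dnajb9, a chaperone of the endoplasmic reticulum, had 10908 in FOXOA3-mDBD FSH, 6500.3 in FOXOA3 FSH, 2373 in GFP FSH and 2389 in GFP vehicle, 4.57-fold higher. Ddit4 and Asns (log2 1.84), Asns named after its value was seen, were the remaining higher members. Ddit3, which encodes CHOP, was 1.05-fold apart, and Nupr1, a stress-responsive nuclear protein, was 4.20-fold lower. In apoptosis 7 of 22 measured genes (31.8%) were lower and 1 higher (Casp8, log2 1.16, named after its value was seen), with a median of -0.39. Both death-promoting and protective genes were among the lower ones, Tnfrsf1a, a TNF receptor, by 3.75-fold, Casp9 by 2.48-fold and the survival gene Bcl2l1 by 3.29-fold. Of 21 measured antioxidant enzymes 5 were lower (23.8%, against 22.5% of all measured genes) and 0 higher, with a median of -0.55, among them Prdx6 (3.66-fold), Gstp1 (2.90-fold) and catalase, Cat, with 806.0 in FOXOA3-mDBD FSH and 2287 in GFP vehicle (2.84-fold).

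**Figure D4:**
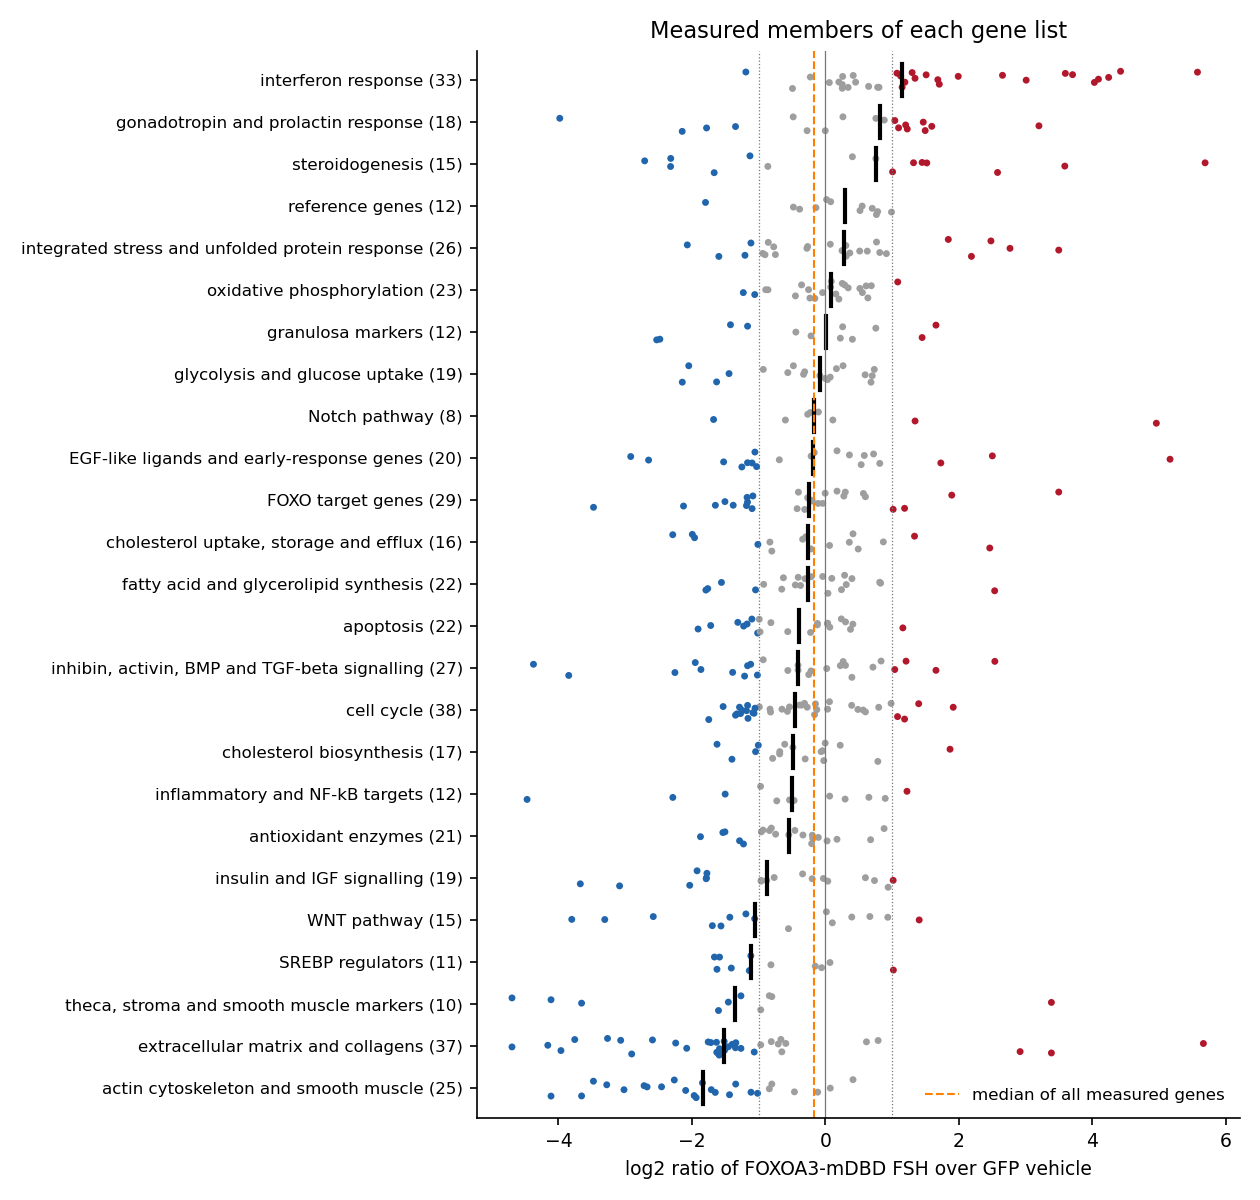
Log2 ratio of FOXOA3-mDBD FSH over GFP vehicle for each measured member (points) of the 25 lists with at least 5 measured members, whose number is in brackets. Red points are at least 2-fold higher, blue points at least 2-fold lower and grey points between; bars are list medians, dotted lines mark 2-fold and the dashed orange line is the median of all measured genes, -0.17. The interferon list has the highest median (1.15) and the actin cytoskeleton list the lowest (-1.84).

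Several probe sets of a gene usually pointed the same way. Of 2516 genes with at least 2 measured probe sets, 933 passed 2-fold by the brightest one. In 839 of these (89.9%) all probe sets had the same direction, in 420 (45.0%) all passed 2-fold, and in 7 (0.75%) a probe set passed 2-fold in the opposite direction. Of the lower genes named above, Akap12 (log2 -0.80), Dvl1 (-0.81), Fosl2 (-0.99), Hk1 (-0.82), Mvk (-0.96) and Pdk1 (-0.90) each had a second probe set inside 2-fold in the same direction. Fshr and Actb had no probe set with a single gene symbol and were not analysed here.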

How the data were processed

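Primary rat granulosa cell cultures were measured on Affymetrix rat arrays, 1 array in each of 4 groups. The authors deposited 1 linear intensity per probe set and array, which MAS5 had given per the submitters' processing notes; the sources used here give neither its version nor its settings. No further scaling was applied. Platform annotation named 20832 probe sets with exactly 1 symbol; the 436 with several symbols and the 9780 with none were not named. Current rat genes matched 99.7% of the identifiers, and 0 symbols were updated. Each gene was represented by its probe set with the highest mean over the 4 arrays. Signals under 100.5, the median of the non-control probe sets, were raised to it before log2 was taken.

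Named genes were the 15 highest and 15 lowest ratios among genes whose brighter signal exceeded 542.5, up to 5 members of each of 29 lists with the largest absolute ratios, the member nearest 0, a fixed set of granulosa genes, and the 5 genes whose probe sets disagreed most. The comparison, its gene lists and this rule were chosen with earlier results of these data known. No test was possible with 1 array a group, and the number of arrays limits the precision. Lists were described by counts and medians, with bounded ratios at their bound. Promoters were taken from a RefSeq table (GRCr8). Calculations used Python 3.11.15, numpy 2.4.6, pandas 2.3.3 and statsmodels 0.14.6 and were tested on simulated data. Alternatives were floors at the 25th and 75th percentiles, a pseudocount, no filter on dim genes, quantile normalization, median centring, loess, other ways to choose the probe set, and a 4-fold threshold.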

Additional observations from a re-analysis of the deposited data

Results flagged for a closer look

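Probe sets without a single gene symbol, which no comparison above uses, also differed between the arrays. Of 10216 such probe sets 4071 were measured, and 583 of them were at least 2-fold higher in FOXOA3-mDBD FSH than in GFP vehicle (14.3%) and 638 were lower (15.7%), with a median log2 ratio of -0.01. The higher share was near the 13.0% of measured named genes, and the lower share was under their 22.5%. Among those whose brighter signal was above 542.5, 14 were at least 16-fold higher and 8 at least 16-fold lower. The counts for named genes above that signal were 57 and 19. No gene was assigned to them here. They were singled out because they carry signal outside the named genes, not because their shares stood out. Groups of 1 array allowed no search for outlying samples.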

How the results depend on the processing

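With a floor at the 25th percentile (27.4) 1980 genes were higher and 2805 lower, with a floor at the 75th percentile (542.5) 789 and 957, and at a 4-fold threshold 358 and 512. Under the other 7 alternatives both counts stayed within 1.5 times the reported 1280 and 2215. The median of all genes, -0.17 as reported, was 0.00 after centring and -0.01 after loess. Of the 140 named genes past 2-fold, 101 stayed past it under every alternative that measured them and 39 were inside it under at least 1. Of the 6 list medians past 2-fold, those of the matrix and actin lists stayed past it throughout, and those of the interferon, SREBP, WNT and stroma lists did not. No called direction reversed. MAS5 ratios of dim probe sets are noisy, and folds at the floor are bounds. No paired analysis was possible because each group had 1 array, and for the same reason no replicate could be left out.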
